A study of Homo sapiens with 16 samples.

Results

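The genes described here encode chromatin remodelers, histone modifiers and proteins that read histone marks, and are 65 of the 8808 genes in a table of RNA levels from U2OS cells, a human osteosarcoma line. They were chosen by name alone, from families such as KDM, SETD, HDAC, SMARC, CHD, PHF, CBX and TET, with RBBP4 and C11orf30 added and the siRNA targets KAT5 and BRD8 left out. Of the 65 names, 59 are current symbols in the RefSeq annotation of GRCh38.p14 and 6 are older ones, such as SETD8 (now KMT5A), MLL5 (KMT2E), PHF15 (JADE2), PHF16 (JADE3) and C11orf30 (EMSY). The annotation gives 61 as protein coding. The others are the pseudogenes CBX3P2, CBX3P9 and PHF2P2 and the noncoding RNA KDM5B-AS1, whose names share a family's letters without its function.

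Cells were transfected with small interfering RNAs (siRNAs) and their poly(A) RNA sequenced, with 2 libraries in each of 6 groups, 12 in all. The control siRNA was directed against luciferase (siLuc), which the cells do not carry. The others were directed against MRG15, encoded by MORF4L1, its paralog MRGX, encoded by MORF4L2, MRGBP, BRD8 and TIP60 itself (gene KAT5). All are subunits of the TIP60 complex, in which TIP60 is the acetyltransferase, and MRG15 and MRGX are shared with other complexes. All groups were untreated U2OS cells under normal growth conditions apart from the siRNA. Pools (smartpools) were used for 4 targets, whereas BRD8 was targeted with 1 catalogue item. In every knockdown effects of the siRNA reagent on other transcripts cannot be told apart from those of losing its target. Nothing in the labels states that replicate libraries were grown as separate cultures, and the spread behind each p-value may therefore be technical. Another 4 samples, of immunoprecipitated chromatin from the leukaemia line K562, were not analysed here.

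The labels call U2OS epithelial, and of 8 mesenchymal markers 6 were in the table with a summed level of 3292 to 5366 CPM (read counts scaled to library size) per library, against 57.5 to 197 CPM for 3 of 6 epithelial markers. The table holds selected genes only, so a marker that is not listed says nothing about the cells. Of 8 erythroid and myeloid markers of K562 cells only HBA1 was listed, at 0 to 0.0422 CPM in 11 libraries and 6.74 CPM in siTIP60 replicate 1. Its part in the results of that library was not tested. Depth, as the effective number of reads per library behind the CPM, was 57255783 to 110402095 reads. Each target was lowest under its own siRNA, with log2 changes of -4.36 (MORF4L1), -3.68 (MORF4L2), -3.54 (MRGBP), -1.99 (BRD8) and -2.47 (KAT5). Other targets fell too in every knockdown but siMRGX. These were MRGBP (-1.18), MORF4L2 (-0.94), BRD8 (-0.69) and MORF4L1 (-0.66) in siTIP60, and MORF4L2 (-0.76) and MRGBP (-0.58) in siMRG15. In siMRGBP they were BRD8 (-0.68), MORF4L2 (-0.49) and MORF4L1 (-0.18), and in siBRD8 MORF4L2 (-0.61) and MRGBP (-0.43). The part of these falls in the results was not tested.

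Chromatin regulators work in multisubunit complexes. Writers such as acetyltransferases and methyltransferases place marks on histone tails, erasers such as deacetylases and demethylases remove them, readers such as bromodomain, PHD finger and chromodomain proteins bind them, and remodelers use ATP to move or exchange nucleosomes. TIP60 acetylates histones H4 and H2A, and its complex exchanges histone variants. MRG15 carries a chromodomain that binds histone H3 methylated at lysine 36, and MRG proteins are also found in histone deacetylase complexes built on SIN3, in which RBBP4 is a histone-binding subunit. Many of these complexes hold one of several paralogs at a given position, so the balance of paralogs sets their make-up.

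Changes below are differences of log2(CPM + 1) between group means, given ± SE with n = 2 libraries per group, and this scale understates the change of genes of a few CPM. Rose and fell are written only of genes with a limma adjusted p under 0.05 over all 8808 genes. The 5 comparisons with siLuc share the siLuc libraries, so the values of a member in different knockdowns are set side by side and their likeness is not counted as evidence. In bulk RNA fewer cells with a transcript and less of it per cell cannot be told apart. The table holds only genes that the authors selected as differentially expressed, so most of its genes pass the test, and members are read against that background.

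In siTIP60 22 of the 65 members rose and 41 fell, 96.9% in all, where 78.8% of all genes in the table passed. The share that fell was 63.1%, against 37.7% of all genes, and the share that rose was 33.8%, against 41.1%. The median change of the members was -0.44, against 0.05 for all genes, and 15 members fell at least 2-fold, beside 11.1% of all genes. In siMRG15 32 rose and 20 fell, 80% in all, where 69.3% of all genes passed, 33.5% higher and 35.8% lower. In siMRGX 28 rose and 20 fell, 73.8% in all, where 68.2% of all genes passed, 28.2% higher and 40% lower. In siBRD8 29 rose and 19 fell, 73.8% in all, where 54.2% of all genes passed, 28.3% higher and 25.9% lower. In each of these 3 the members that rose outnumbered those that fell, with medians of 0.15, 0.09 and 0.15 beside -0.03, -0.10 and 0.01 for all genes. In siMRGBP the members that fell outnumbered those that rose, with 18 members higher and 28 lower, 70.8% in all, where 65% of all genes passed, 32.1% higher and 32.9% lower, and a median of -0.11 beside -0.02. The split in siMRGX depends on the scaling between libraries. Median-of-ratios factors, which shift the median of all genes there by 0.109, gave 34 members higher and 14 lower, and TMM factors, with a shift of 0.0792, gave 32 and 14. Over all genes median-of-ratios factors gave 3120 higher and 2886 lower and TMM factors 2938 and 3056, beside 2488 and 3520 without them. No test of the members as a set was made. Values for ARID3A, EHMT1, ING4, KDM2B, MLL5, MLLT6, PHF16, PHF19, PRDM10, SETD5, SIRT4, SMARCA2, SMARCC2 and SUV39H2 are given below to fill their role groups, chosen after they had been seen.

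**Figure D1:**
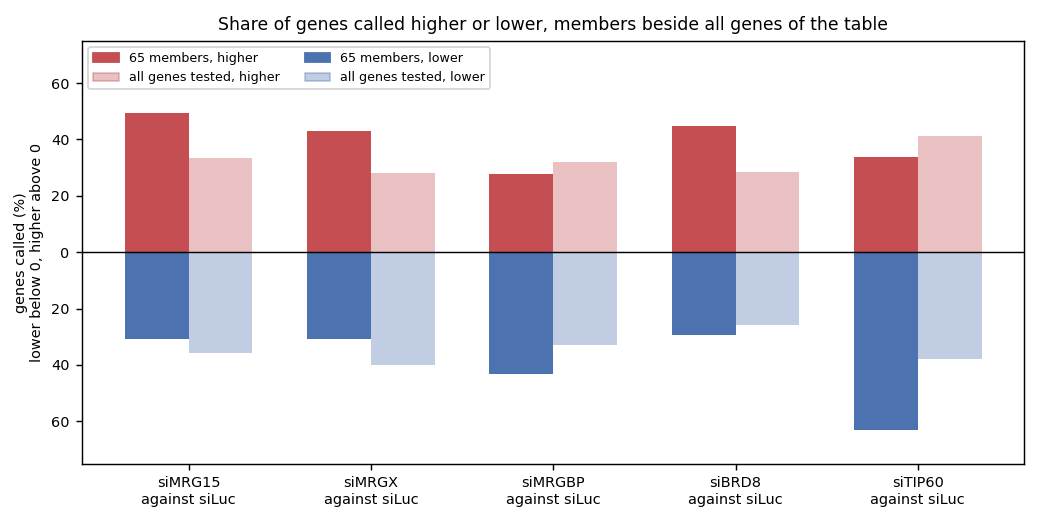
Percent of genes called at a limma adjusted p under 0.05 in each knockdown against siLuc, higher above 0 and lower below 0; dark bars are the 65 members and pale bars all 8808 genes of the table. In siTIP60 63.1% of the members were lower against 37.7% of all genes, and in siMRG15 49.2% were higher against 33.5%.

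**Figure D2:**
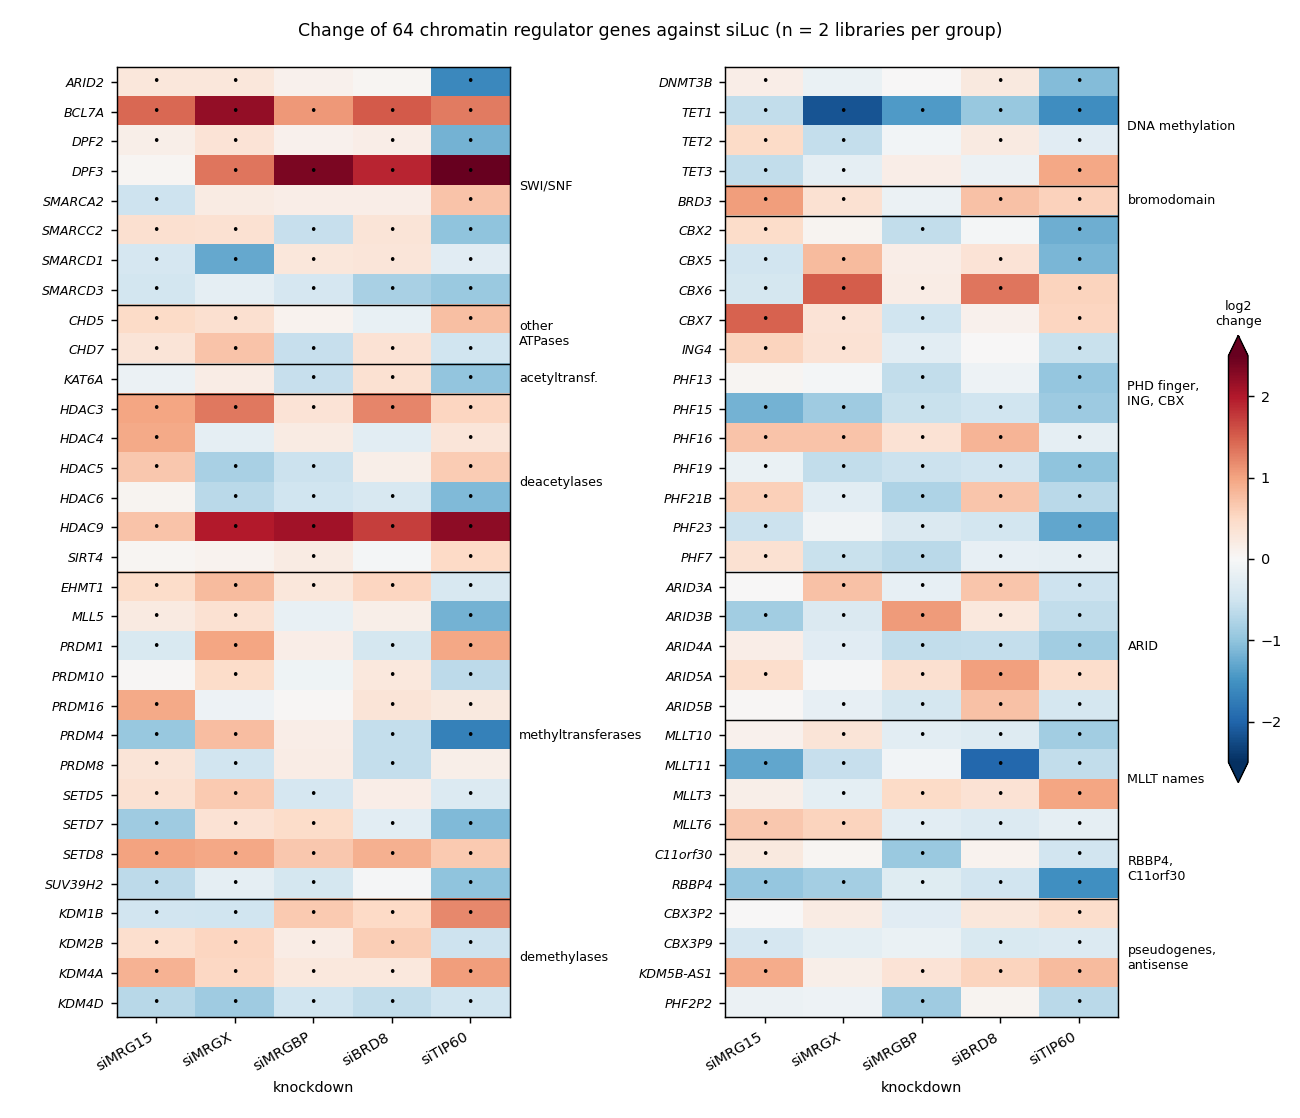
Difference of log2(CPM + 1) between each knockdown and siLuc for 64 of the 65 members, grouped by role; red is higher, blue is lower, and a dot marks a limma adjusted p under 0.05. The siTIP60 column is mostly blue, with DPF3 at 3.06 and HDAC9 at 2.24 among its exceptions.

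SWI/SNF complexes slide and evict nucleosomes, and 8 members are their subunits. DPF3, a double PHD finger subunit known from heart and muscle, had the widest range of group means of all members. Its levels were 4.26 and 5.95 CPM in the siLuc libraries and 5.29 and 5.27 CPM in siMRG15, 14 and 14.3 CPM in siMRGX, 21.6 and 21.8 CPM in siBRD8, 34.5 and 26.2 CPM in siMRGBP and 45.8 and 53.5 CPM in siTIP60. Only siMRG15 overlapped siLuc, and all other knockdown libraries lay above both. DPF3 rose by 1.33 ± 0.13 in siMRGX, 1.91 ± 0.13 in siBRD8, 2.36 ± 0.13 in siMRGBP and 3.06 ± 0.13 in siTIP60 (limma adjusted p = 4.87e-10), while in siMRG15 the difference was 0.05 ± 0.13 (limma adjusted p = 0.735).

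The paralog DPF2, a subunit found in most tissues, went the other way in siTIP60. It stood at 85.2 and 86.4 CPM in siLuc and 37.1 and 37.1 CPM in siTIP60, below every other library, and fell (log2 change -1.19 ± 0.06). In siMRGX it rose (0.34 ± 0.06), and in siMRG15, siMRGBP and siBRD8 its differences of 0.15 ± 0.06, 0.10 ± 0.06 and 0.16 ± 0.06 were small. That in siMRGBP was not called, that in siMRG15 lost its call when any siLuc, siBRD8 or siMRG15 library was left out (limma adjusted p up to 0.0933, without siMRG15 replicate 2), and that in siBRD8 when any siLuc or siBRD8 library was left out (up to 0.132, without siBRD8 replicate 2). The ratio of DPF3 to DPF2 levels is not given, since the CPM are not scaled by length.

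BCL7A, a small subunit of the same complexes, was lowest in siLuc. Its siLuc libraries held 6.47 and 5.32 CPM, those of siMRGBP 14.1 and 13.1 CPM, siTIP60 15.3 and 16.5 CPM, siMRG15 16.5 and 18.5 CPM, siBRD8 18.4 and 19.4 CPM and siMRGX 29.5 and 31.2 CPM. All 10 knockdown libraries lay above both siLuc libraries. In siMRGX the rise was 2.19 ± 0.09 and in the other knockdowns it ran from 1.09 ± 0.09 in siMRGBP to 1.53 ± 0.09 in siBRD8. siMRGX stood 0.85 ± 0.07 above the mean of the other 4 knockdowns.

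ARID2, the DNA-binding subunit of the PBAF form, was at 111 and 117 CPM in siLuc and 35.1 and 38.6 CPM in siTIP60, the lowest libraries of the 12. It fell there (-1.61 ± 0.07, limma adjusted p = 5.84e-10) and rose slightly in siMRG15 (0.28 ± 0.07) and siMRGX (0.29 ± 0.07). SMARCC2, a core scaffold subunit, fell from 144 and 127 CPM to 64.8 and 69 CPM in siTIP60 (-1.01 ± 0.08) and to 82.8 and 97.7 CPM in siMRGBP (-0.58 ± 0.08). It rose in siMRG15 (0.40 ± 0.08), siMRGX (0.38 ± 0.08) and siBRD8 (0.33 ± 0.08), so the direction separated the knockdowns. SMARCD1, an accessory subunit that contacts transcription factors, was lowest in siMRGX, at 57.4 and 54.7 CPM against 136 and 139 CPM in siLuc (-1.28 ± 0.06), and its siMRGX level lay -1.25 ± 0.05 from the mean of the other 4 knockdowns. Its paralog SMARCD3 fell in siMRG15 (-0.45 ± 0.10), siMRGBP (-0.42 ± 0.10), siBRD8 (-0.82 ± 0.10) and siTIP60 (-0.93 ± 0.10). SMARCA2, one of the alternative ATPases of the complex, rose in siTIP60 (0.71 ± 0.10) and fell in siMRG15 (-0.51 ± 0.10). Of the 8 subunits 3 rose and 5 fell in siTIP60, 5 rose and 1 fell in siMRGX and in siBRD8, 4 rose and 3 fell in siMRG15, and 3 rose and 2 fell in siMRGBP. Over all genes 41.1% rose and 37.7% fell in siTIP60, 28.2% and 40% in siMRGX, and 28.3% and 25.9% in siBRD8. These shares were 33.5% and 35.8% in siMRG15 and 32.1% and 32.9% in siMRGBP.

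**Figure D3:**
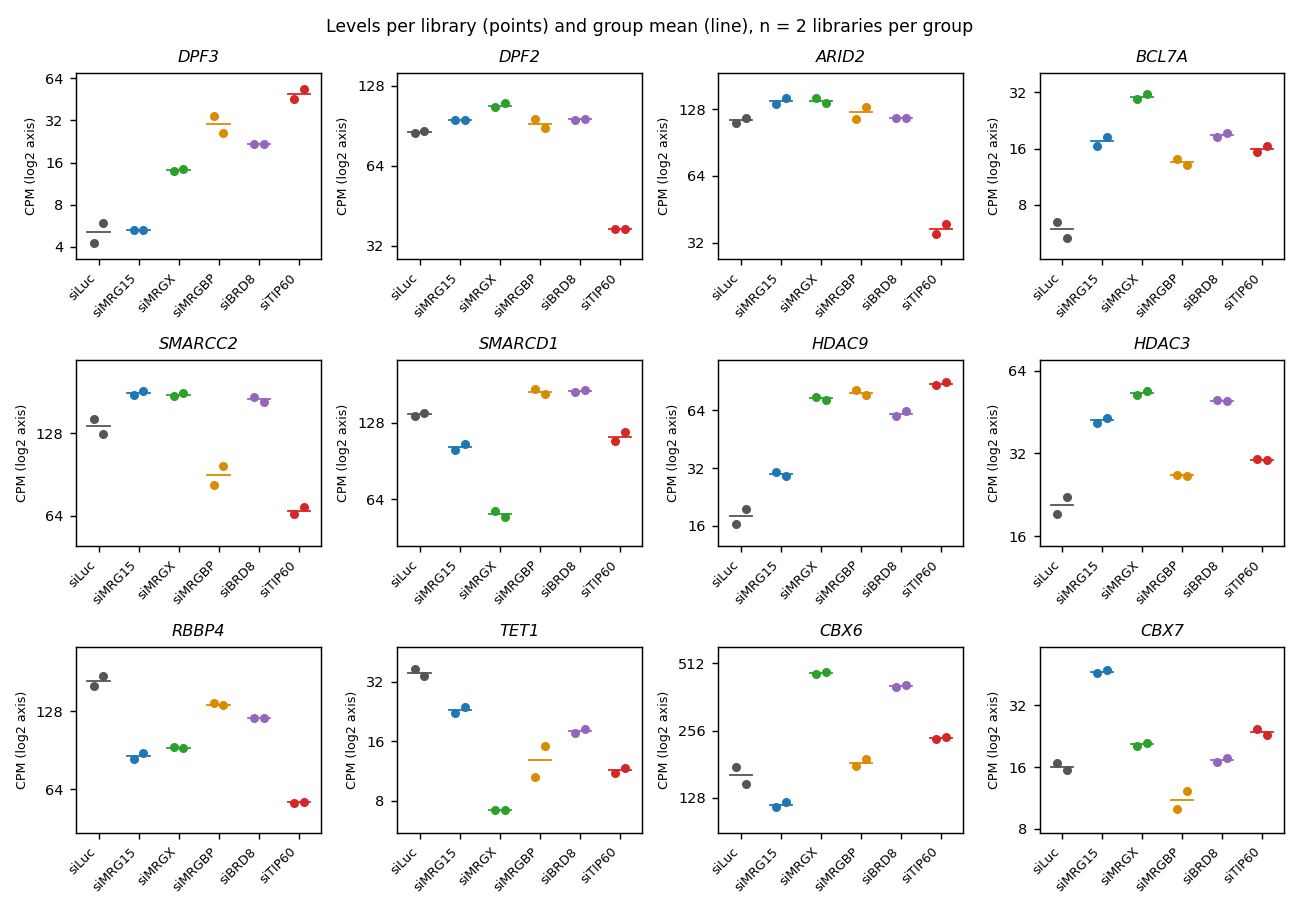
CPM on a log2 axis for 12 members in the 12 libraries; each point is a library and each line the mean of a group of 2. DPF2, ARID2 and RBBP4 are lowest in siTIP60, SMARCD1 and TET1 are lowest in siMRGX, and CBX7 is highest in siMRG15.

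The promoters of 3 SWI/SNF subunit genes are shown, those of the paralogs DPF2 and DPF3, which moved apart in siTIP60, and that of BCL7A, which rose in every knockdown. The sequences are from RefSeq on GRCh38.p14, from 250 bases before to 50 after a listed start, 5′ to 3′ on the gene's strand, with the GC box GGGCGG or its reverse complement in capitals. Of the 65 members 49 had at least 1 entry of this length. DPF2 lies at chr11:65333602-65333901 on the plus strand, DPF3 (the first of 2 listed starts) at chr14:72894052-72894351 on the minus strand and BCL7A at chr12:122021634-122021933 on the plus strand.
DPF2: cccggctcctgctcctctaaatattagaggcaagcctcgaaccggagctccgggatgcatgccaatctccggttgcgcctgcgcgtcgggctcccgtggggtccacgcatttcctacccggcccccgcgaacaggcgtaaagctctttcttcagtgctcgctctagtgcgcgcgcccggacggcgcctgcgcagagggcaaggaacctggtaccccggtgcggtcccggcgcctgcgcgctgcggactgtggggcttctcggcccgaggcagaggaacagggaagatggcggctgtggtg
DPF3: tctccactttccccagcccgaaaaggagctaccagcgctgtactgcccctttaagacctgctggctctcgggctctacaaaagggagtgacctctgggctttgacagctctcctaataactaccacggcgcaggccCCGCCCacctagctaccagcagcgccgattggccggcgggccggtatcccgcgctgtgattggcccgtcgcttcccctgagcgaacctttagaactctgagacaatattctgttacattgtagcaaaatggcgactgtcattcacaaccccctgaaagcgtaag
BCL7A: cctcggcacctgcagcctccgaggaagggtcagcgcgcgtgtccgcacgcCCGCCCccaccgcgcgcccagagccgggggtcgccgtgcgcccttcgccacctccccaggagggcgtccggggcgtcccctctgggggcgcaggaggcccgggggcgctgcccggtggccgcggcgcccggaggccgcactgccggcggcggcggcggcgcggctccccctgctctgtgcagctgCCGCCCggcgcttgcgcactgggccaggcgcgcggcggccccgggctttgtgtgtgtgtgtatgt
The DPF2 window holds 33 CpG dinucleotides, that of BCL7A 44 and that of DPF3 18, beside a median of 14 over all 35116 promoter windows of this length and of 22 over the 93 windows of members. The GC box occurs in 45% of all windows and 59.1% of members' windows, on either strand. Of 4 further motifs searched on both strands none is in these 3 windows: the E-box CACGTG (7.26% of all windows), the ETS motif CCGGAAG (10.3%), the cyclic AMP response element TGACGTCA (1.85%) and the E2F motif TTTCCCGC (1.63%). A match is a run of letters and does not show binding.

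CHD7 and CHD5 are ATP-dependent remodelers outside SWI/SNF. CHD7, known from neural crest development, was at 121 and 102 CPM in siLuc, 179 and 190 CPM in siMRGX, 69.9 and 79.7 CPM in siMRGBP and 75.3 and 83.2 CPM in siTIP60. It rose in siMRGX (0.72 ± 0.09) and siBRD8 (0.36 ± 0.09) and fell in siMRGBP (-0.57 ± 0.09) and siTIP60 (-0.49 ± 0.09). CHD5, of neurons and testis, rose in siMRG15 (0.48 ± 0.11), siMRGX (0.41 ± 0.11) and siTIP60 (0.75 ± 0.11). KAT6A is the one acetyltransferase among the members and belongs to the MYST family, as TIP60 does. Its libraries held 126 and 123 CPM in siLuc, 165 and 164 CPM in siBRD8, 76.6 and 91.6 CPM in siMRGBP and 60.3 and 65.6 CPM in siTIP60. KAT6A fell in siTIP60 (-0.98 ± 0.08) and siMRGBP (-0.57 ± 0.08) and rose in siBRD8 (0.39 ± 0.08), with -0.14 ± 0.08 in siMRG15 and 0.18 ± 0.08 in siMRGX, neither called. BRD3, a bromodomain reader of acetylated histones, rose from 40.5 and 37 CPM to 79.6 and 81.8 CPM in siMRG15 (1.04 ± 0.08), and by 0.73 ± 0.08 in siBRD8, 0.58 ± 0.08 in siTIP60 and 0.39 ± 0.08 in siMRGX.

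Of 6 deacetylase members 5 rose and 1 fell in siTIP60, 4 rose and 0 fell in siMRG15, 3 rose and 2 fell in siMRGBP, 2 rose and 2 fell in siMRGX, and 2 rose and 1 fell in siBRD8. The shares of all genes that rose and fell were 41.1% and 37.7% in siTIP60, 33.5% and 35.8% in siMRG15, and 32.1% and 32.9% in siMRGBP. They were 28.2% and 40% in siMRGX and 28.3% and 25.9% in siBRD8. The HDAC4 rise in siTIP60 lost its call with TMM factors (0.25, limma adjusted p = 0.0507). It also lost its call without siLuc replicate 2 (0.26) or siTIP60 replicate 1 (0.20). One of the 3 rises in siMRGBP, that of SIRT4, lost its call with the edgeR test (adjusted p = 0.0603) and when any 1 of 8 libraries was left out (limma adjusted p up to 0.14, without siLuc replicate 2). HDAC9, a class IIa deacetylase of muscle and other tissues, was at 16.4 and 19.5 CPM in siLuc, 30.7 and 29.1 CPM in siMRG15, 59.9 and 63.3 CPM in siBRD8, 75.6 and 72.4 CPM in siMRGX, 81.9 and 76.7 CPM in siMRGBP and 86.8 and 90.1 CPM in siTIP60. Every knockdown library lay above both siLuc libraries, and siMRG15 was the lowest knockdown. The rise was 0.71 ± 0.08 in siMRG15 and between 1.73 ± 0.08 (siBRD8) and 2.24 ± 0.08 (siTIP60; limma adjusted p = 7.77e-11) in the others, and siMRG15 lay -1.30 ± 0.06 from the mean of the other 4.

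HDAC3, the catalytic subunit of NCoR corepressor complexes, was lowest in siLuc too, at 19.2 and 22.3 CPM, with 26.8 and 26.4 CPM in siMRGBP, 30.6 and 30.2 CPM in siTIP60, 41.4 and 42.9 CPM in siMRG15, 50.1 and 49.6 CPM in siBRD8 and 52.3 and 53.8 CPM in siMRGX. No knockdown library overlapped siLuc. It rose by 1.32 ± 0.07 in siMRGX, 1.23 ± 0.07 in siBRD8, 0.99 ± 0.07 in siMRG15, 0.53 ± 0.07 in siTIP60 and 0.35 ± 0.07 in siMRGBP. HDAC5 and HDAC4, class IIa enzymes that shuttle between nucleus and cytoplasm, parted the MRG paralogs. HDAC5 held 30.4 and 30.6 CPM in siLuc, 50.3 and 47.9 CPM in siMRG15 and 16.8 and 17 CPM in siMRGX, and it rose in siMRG15 (0.67 ± 0.07) and siTIP60 (0.64 ± 0.07) and fell in siMRGX (-0.82 ± 0.07) and siMRGBP (-0.54 ± 0.07). HDAC4, at 1.97 and 1.77 CPM in siLuc, rose to 4.93 and 4.19 CPM in siMRG15 (0.95 ± 0.11). HDAC6, which deacetylates tubulin, fell in siTIP60 from 68.9 and 65.9 CPM to 30.3 and 31.4 CPM (-1.10 ± 0.07), and in siMRGX (-0.68 ± 0.07), siMRGBP (-0.50 ± 0.07) and siBRD8 (-0.40 ± 0.07). SIRT4, a mitochondrial sirtuin, stayed under 2 CPM in all libraries and rose in siTIP60 (0.49 ± 0.08).

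Methyltransferases and the PRDM family, whose members carry a related domain and act largely as transcription factors, make up 12 members. In siTIP60 3 rose and 7 fell, in siMRGX 8 rose and 2 fell, and in siMRG15 7 rose and 4 fell. Over all genes 41.1% rose and 37.7% fell in siTIP60, 28.2% and 40% in siMRGX, and 33.5% and 35.8% in siMRG15. SETD8, the enzyme of histone H4 lysine 20 monomethylation, was lowest in siLuc, at 37.2 and 39.1 CPM, and rose to 74.8 and 80.3 CPM in siMRG15 (1.01 ± 0.06), 76 and 74.6 CPM in siMRGX (0.96 ± 0.06), 71.6 and 70.3 CPM in siBRD8 (0.88 ± 0.06), 61.4 and 61.3 CPM in siMRGBP (0.67 ± 0.06) and 60.2 and 60.8 CPM in siTIP60 (0.65 ± 0.06). Its lowest knockdown library was above both siLuc libraries. MLL5, a SET domain protein of the MLL family, was at 180 and 178 CPM in siLuc and fell to 73.1 and 82.9 CPM in siTIP60 (-1.19 ± 0.08). In siMRGX it rose (0.38 ± 0.08).

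EHMT1 and SUV39H2, which methylate lysine 9 of histone H3, fell in siTIP60. EHMT1 held 66.2 and 55.7 CPM in siLuc and 45 and 46.3 CPM in siTIP60 (-0.41 ± 0.08), and SUV39H2 82.5 and 88.1 CPM and 40.9 and 43 CPM (-1.01 ± 0.07). Elsewhere EHMT1 was higher, at 106 and 107 CPM in siMRGX (0.80 ± 0.08), with rises in siBRD8 (0.54 ± 0.08) and siMRG15 (0.46 ± 0.08), whereas SUV39H2 also fell in siMRG15 (-0.65 ± 0.07) and siMRGBP (-0.43 ± 0.07). SETD7, which methylates histone H3 and other proteins, was at 158 and 169 CPM in siLuc, 86.8 and 89.1 CPM in siMRG15, 71.5 and 79.2 CPM in siTIP60, 215 and 206 CPM in siMRGX and 231 and 218 CPM in siMRGBP. It fell in siTIP60 (-1.11 ± 0.07), siMRG15 (-0.89 ± 0.07) and siBRD8 (-0.26 ± 0.07) and rose in siMRGBP (0.45 ± 0.07) and siMRGX (0.36 ± 0.07). SETD5 rose in siMRGX (0.66 ± 0.08) and siMRG15 (0.38 ± 0.08) and fell in siMRGBP (-0.42 ± 0.08) and siTIP60 (-0.34 ± 0.08).

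PRDM4, a zinc finger protein, had the widest spread of the family. Its libraries stood at 64.9 and 59.5 CPM in siLuc, 109 and 105 CPM in siMRGX, 68.3 and 70.9 CPM in siMRGBP, 40.8 and 40.9 CPM in siBRD8, 31.5 and 32.5 CPM in siMRG15 and 17.7 and 19.7 CPM in siTIP60. The level rose in siMRGX (0.78 ± 0.07) and fell in siBRD8 (-0.59 ± 0.07), siMRG15 (-0.94 ± 0.07) and siTIP60 (-1.68 ± 0.07; limma adjusted p = 2.54e-10). PRDM1, a repressor best known from plasma cells, was high in siMRGX and siTIP60, at 26.2 and 26.4 CPM and 25.4 and 26.5 CPM against 12.5 and 13.2 CPM in siLuc (0.98 ± 0.07 and 0.96 ± 0.07), and low in siMRG15 (-0.39 ± 0.07) and siBRD8 (-0.44 ± 0.07). PRDM16, a regulator of brown fat and blood stem cells, was under 0.5 CPM in siLuc, at 0.312 and 0.408 CPM, and at 1.75 and 1.52 CPM in siMRG15 (0.95 ± 0.09). The siLuc values rest on few reads, and the fewest in any library was 13. PRDM10 rose in siMRGX (0.46 ± 0.06) and fell in siTIP60 (-0.65 ± 0.06), and PRDM8, known from the nervous system, fell in siBRD8 (-0.59 ± 0.12) and siMRGX (-0.48 ± 0.12).

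The 4 demethylases divided. KDM4A, which removes methyl groups from lysines 9 and 36 of histone H3, was at 63.1 and 52.2 CPM in siLuc, 104 and 108 CPM in siMRG15 and 118 and 122 CPM in siTIP60, and rose in siTIP60 (1.05 ± 0.10), siMRG15 (0.87 ± 0.10) and siMRGX (0.52 ± 0.10). KDM1B, a demethylase of histone H3 lysine 4, went up in siTIP60 from 22.8 and 21.9 CPM to 50.2 and 54.8 CPM (1.20 ± 0.07), in siMRGBP (0.66 ± 0.07) and in siBRD8 (0.50 ± 0.07). Under the MRG siRNAs it fell, to 15.6 and 15.9 CPM in siMRG15 (-0.48 ± 0.07) and 16.2 and 14.8 CPM in siMRGX (-0.50 ± 0.07), so the MRG paralogs lay on the other side of siLuc from MRGBP, BRD8 and TIP60. KDM2B, a demethylase of lysine 36 that binds CpG islands, rose in siMRG15 (0.42 ± 0.07), siMRGX (0.53 ± 0.07) and siBRD8 (0.62 ± 0.07) and fell in siTIP60 (-0.52 ± 0.07). KDM4D, of histone H3 lysine 9, was highest in siLuc at 4.5 and 4.59 CPM, and all knockdown libraries were below it, at 1.91 to 3.08 CPM. Its log2 changes ran from -0.49 ± 0.09 in siMRGBP to -0.89 ± 0.09 in siMRGX.

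TET enzymes oxidise 5-methylcytosine, the first step of active DNA demethylation, and DNMT3B places that mark on new sites. TET1 was at 37 and 34.3 CPM in siLuc, 22.3 and 23.8 CPM in siMRG15, 17.6 and 18.4 CPM in siBRD8, 10.6 and 15.1 CPM in siMRGBP, 11.1 and 11.7 CPM in siTIP60 and 7.21 and 7.16 CPM in siMRGX. All 10 knockdown libraries were below both siLuc libraries. The log2 change was -2.16 ± 0.12 in siMRGX (limma adjusted p = 7.67e-09), -1.56 ± 0.12 in siTIP60, -1.42 ± 0.12 in siMRGBP, -0.95 ± 0.12 in siBRD8 and -0.61 ± 0.12 in siMRG15. TET2 and TET3 changed direction between knockdowns. TET2 rose in siMRG15 (0.48 ± 0.08) and fell in siMRGX (-0.60 ± 0.08) and siTIP60 (-0.29 ± 0.08). TET3 held 110 and 86.4 CPM in siLuc and 197 and 188 CPM in siTIP60, where it rose (0.97 ± 0.09), and it fell in siMRG15 (-0.61 ± 0.09). DNMT3B fell in siTIP60 from 34.9 and 30.5 CPM to 14.7 and 15.1 CPM (-1.08 ± 0.07), below all other libraries.

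Readers with PHD fingers, ING proteins and chromobox (CBX) proteins number 12. In siTIP60 10 of them fell and 2 rose, where 37.7% of all genes fell and 41.1% rose. The PHF16 fall in siTIP60 lost its call without siTIP60 replicate 1 (-0.17). That of PHF7 lost its call without siLuc replicate 2 (-0.21) or siTIP60 replicate 1 (-0.21). In siMRGBP 9 fell and 2 rose, where 32.9% of all genes fell and 32.1% rose. The CBX6 rise in siMRGBP (0.19) lost its call without the intensity trend and with the replicate block (limma adjusted p = 0.0606 and 0.0544). It also lost its call when any of several libraries was left out, and was 0.07 without siLuc replicate 2. The ING4 fall there lost its call without siLuc replicate 1 (-0.21) or siMRGBP replicate 2 (-0.15). In siMRG15 6 rose and 5 fell, in siMRGX 5 rose and 4 fell, and in siBRD8 4 rose and 4 fell. Over all genes 33.5% rose and 35.8% fell in siMRG15, 28.2% and 40% in siMRGX, and 28.3% and 25.9% in siBRD8. CBX2, CBX6 and CBX7 are alternative chromobox subunits of Polycomb repressive complex 1, which binds methylated lysine 27 of histone H3. CBX7 was at 16.7 and 15.5 CPM in siLuc and 45.8 and 47.2 CPM in siMRG15, the highest libraries of the 12, and rose by 1.48 ± 0.09 there, with smaller rises in siTIP60 (0.53 ± 0.09) and siMRGX (0.34 ± 0.09) and a fall in siMRGBP (-0.50 ± 0.09). CBX6 held 175 and 148 CPM in siLuc, 116 and 123 CPM in siMRG15, 402 and 410 CPM in siBRD8 and 460 and 467 CPM in siMRGX. It rose in siMRGX (1.52 ± 0.08), siBRD8 (1.33 ± 0.08) and siTIP60 (0.56 ± 0.08) and fell in siMRG15 (-0.43 ± 0.08). CBX2 fell in siTIP60 from 85 and 75.3 CPM to 33.6 and 34 CPM (-1.22 ± 0.07) and in siMRGBP (-0.61 ± 0.07), and rose in siMRG15 (0.45 ± 0.07). So CBX7 and CBX2 rose and CBX6 fell in siMRG15.

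CBX5, which encodes the heterochromatin protein HP1 alpha and binds methylated lysine 9 of histone H3, was at 315 and 338 CPM in siLuc, 563 and 567 CPM in siMRGX, 239 and 229 CPM in siMRG15 and 141 and 155 CPM in siTIP60. It rose in siMRGX (0.79 ± 0.07) and siBRD8 (0.34 ± 0.07) and fell in siTIP60 (-1.14 ± 0.07) and siMRG15 (-0.48 ± 0.07). Transcripts of its relative CBX3 have processed pseudogene copies, of which CBX3P2 and CBX3P9 are in the table at 0.245 to 1.42 CPM, so their values are uncertain.

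PHF15 and PHF16 encode scaffold proteins of the HBO1 acetyltransferase complex, in which ING4 is another subunit. PHF15 was highest in siLuc, at 95.7 and 88.9 CPM, and fell in siMRG15 to 38.7 and 40.9 CPM (-1.19 ± 0.08), and also in siTIP60 (-0.91 ± 0.08), siMRGX (-0.89 ± 0.08), siMRGBP (-0.55 ± 0.08) and siBRD8 (-0.49 ± 0.08). PHF16 moved up from 39.4 and 42.7 CPM, in siBRD8 (0.85 ± 0.06), siMRGX (0.72 ± 0.06), siMRG15 (0.71 ± 0.06) and siMRGBP (0.37 ± 0.06). ING4 rose in siMRG15 (0.56 ± 0.09) and siMRGX (0.37 ± 0.09) and fell in siTIP60 (-0.56 ± 0.09). PHF19, a partner of Polycomb repressive complex 2, was at 146 and 134 CPM in siLuc and fell in siTIP60 (-1.01 ± 0.06), siMRGX (-0.62 ± 0.06), siMRGBP (-0.54 ± 0.06) and siBRD8 (-0.47 ± 0.06). PHF23 fell most in siTIP60, from 63.5 and 70 CPM to 27.6 and 25.3 CPM (-1.30 ± 0.08), and PHF13, which binds methylated lysine 4 of histone H3, fell in siTIP60 (-0.96 ± 0.06) and siMRGBP (-0.62 ± 0.06). PHF21B rose in siBRD8 (0.69 ± 0.10) and siMRG15 (0.59 ± 0.10) and fell in siMRGBP (-0.77 ± 0.10) and siTIP60 (-0.67 ± 0.10). PHF7, known from testis, rose in siMRG15 (0.38 ± 0.07) and fell in siMRGBP (-0.68 ± 0.07) and siMRGX (-0.55 ± 0.07).

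RBBP4 and C11orf30 belong to SIN3-type complexes, in which MRG proteins are also found. RBBP4, a histone-binding WD repeat protein, was highest in siLuc at 161 and 175 CPM. Its other libraries held 138 and 135 CPM in siMRGBP, 121 and 121 CPM in siBRD8, 93.1 and 92.3 CPM in siMRGX, 83.4 and 87.9 CPM in siMRG15 and 56.4 and 57.2 CPM in siTIP60, all below both siLuc libraries. The log2 change was -1.54 ± 0.06 in siTIP60 (limma adjusted p = 1.63e-10), -0.96 ± 0.06 in siMRG15, -0.85 ± 0.06 in siMRGX, -0.47 ± 0.06 in siBRD8 and -0.30 ± 0.06 in siMRGBP. C11orf30 encodes EMSY, a partner of BRCA2, and held 95.2 and 93.9 CPM in siLuc, 45.7 and 53.1 CPM in siMRGBP and 65.3 and 70.4 CPM in siTIP60. Its RNA fell in siMRGBP (-0.93 ± 0.07) and siTIP60 (-0.47 ± 0.07). In siMRG15 a rise of 0.25 ± 0.07 lost its call without siMRG15 replicate 2 (limma adjusted p = 0.0642).

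Other partners of MRG proteins, such as HDAC1, HDAC2, KDM5A, KDM5B, PHF12 and SETD2, were not among the members and were not analysed here. The table holds selected genes only, so this says nothing about their RNA.

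ARID4A, a retinoblastoma-binding protein of SIN3 complexes, fell from 36.8 and 38.1 CPM in siLuc to 18.6 and 21.9 CPM in siTIP60 (-0.86 ± 0.08), and in siMRGBP (-0.62 ± 0.08) and siBRD8 (-0.59 ± 0.08). ARID3B, a DNA-binding protein, was at 15 and 13.2 CPM in siLuc, 32.3 and 29 CPM in siMRGBP and 7.27 and 7.23 CPM in siMRG15. It rose in siMRGBP (1.07 ± 0.08) and fell in siMRG15 (-0.87 ± 0.08), siTIP60 (-0.61 ± 0.08) and siMRGX (-0.36 ± 0.08). Its paralog ARID3A rose in siMRGX (0.73 ± 0.08) and siBRD8 (0.70 ± 0.08) and fell in siTIP60 (-0.52 ± 0.08). ARID5A and ARID5B were highest in siBRD8, at 25.5 and 24.6 CPM and 225 and 218 CPM against 11.7 and 12 CPM and 128 and 138 CPM in siLuc (1.02 ± 0.08 and 0.73 ± 0.07).

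The 4 MLLT names come from fusion partners of MLL in leukaemia and are not 1 family. MLLT11, which has no known histone function, was at 102 and 113 CPM in siLuc and 27.4 and 26.2 CPM in siBRD8, the lowest libraries of the 12, and fell there (-1.97 ± 0.08, limma adjusted p = 5.39e-09). It also fell in siMRG15 (-1.29 ± 0.08), siTIP60 (-0.61 ± 0.08) and siMRGX (-0.58 ± 0.08). MLLT3, a reader of acylated histones, rose in siTIP60 from 11.1 and 10.3 CPM to 21.3 and 23.1 CPM (0.99 ± 0.09), while MLLT10, a cofactor of the methyltransferase DOT1L, fell from 69.6 and 69.6 CPM to 37.5 and 38.3 CPM (-0.86 ± 0.06). MLLT6 rose in siMRG15 (0.68 ± 0.07) and siMRGX (0.55 ± 0.07). KDM5B-AS1, which lies beside the demethylase gene KDM5B, rose from 1.29 and 1.02 CPM to 3.03 and 3.14 CPM in siMRG15 (0.93 ± 0.10). It stood at 2.98 and 2.47 CPM in siTIP60, 2.03 and 2.25 CPM in siBRD8, 1.64 and 1.79 CPM in siMRGBP and 1.31 and 1.45 CPM in siMRGX. Whether strand was used in counting is not given in the sources used here, so its reads cannot be told apart from those of an overlapping gene. PHF2P2, a pseudogene that shares sequence with PHF2, fell in siMRGBP (-0.89 ± 0.11) and siTIP60 (-0.68 ± 0.11), with the same uncertainty of its reads.

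Each knockdown was also compared with the mean of the other 4, which uses no siLuc library. There siTIP60 had 17 members higher and 38 lower, where 80.3% of all genes passed, 43.9% higher and 36.4% lower. In siMRGBP 19 were higher and 30 lower, where 68.8% of all genes passed, 34.6% higher and 34.1% lower. In siMRG15 36 were higher and 18 lower, where 77.2% of all genes passed, 39.7% higher and 37.5% lower. In siMRGX 33 were higher and 20 lower, where 78.2% of all genes passed, 31.5% higher and 46.8% lower. In siBRD8 33 were higher and 15 lower, where 60.1% of all genes passed, 32.9% higher and 27.2% lower. The members furthest below the other knockdowns in siTIP60 were ARID2 (-1.79 ± 0.06), PRDM4 (-1.53 ± 0.05) and DPF2 (-1.37 ± 0.04), and those furthest above were DPF3 (1.65 ± 0.11), TET3 (1.17 ± 0.07) and KDM1B (1.15 ± 0.05). In siMRG15 these were DPF3 (-2.11 ± 0.11), CBX6 (-1.33 ± 0.06) and HDAC9 (-1.30 ± 0.06) below and CBX7 (1.36 ± 0.07), HDAC4 (0.95 ± 0.09) and TET1 (0.92 ± 0.09) above. In siMRGX SMARCD1 (-1.25 ± 0.05), HDAC5 (-1.05 ± 0.05) and TET1 (-1.03 ± 0.09) lay below and PRDM4 (1.54 ± 0.05), CBX6 (1.11 ± 0.06) and CBX5 (1.07 ± 0.06) above.

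In siMRGBP CBX7 (-1.12 ± 0.07), C11orf30 (-0.90 ± 0.06) and PHF21B (-0.85 ± 0.08) lay furthest below the other knockdowns and ARID3B (1.46 ± 0.06), MLLT11 (1.05 ± 0.07) and SETD7 (0.92 ± 0.05) furthest above. In siBRD8 MLLT11 (-1.33 ± 0.07), PRDM1 (-0.87 ± 0.06) and PRDM8 (-0.63 ± 0.09) lay below and ARID5B (1.00 ± 0.06), PHF21B (0.97 ± 0.08) and CBX6 (0.87 ± 0.06) above. BCL7A in siBRD8 differed from the mean of the other knockdowns by 0.03 ± 0.07, within its error. With the widest range over groups, DPF3 was compared with every other member over the 6 group means of log2(CPM + 1), which share libraries. The profiles most like it were those of HDAC9 (Pearson's r = 0.904), SMARCA2 (0.845) and KDM1B (0.833), and the one most unlike it was that of ARID4A (-0.983).

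The paralogs MRG15 and MRGX were compared directly, siMRG15 minus siMRGX. Of the 65 members 23 were higher and 24 lower in siMRG15, 72.3% in all where 74.5% of all genes passed, 40.8% higher and 33.6% lower, so the share of members that differ is near the background. The split depends on the scaling, since median-of-ratios factors gave 20 members higher and 30 lower and turned all genes from 3597 higher and 2962 lower to 3198 and 3441. MORF4L2, the gene of MRGX, itself fell in siMRG15 (-0.76 against siLuc), whereas MORF4L1 did not pass the test in siMRGX (-0.04). The members furthest apart with more RNA after MRG15 loss were TET1 (1.55 ± 0.12), HDAC5 (1.49 ± 0.07), HDAC4 (1.17 ± 0.11), CBX7 (1.14 ± 0.09), TET2 (1.08 ± 0.08) and PRDM16 (1.07 ± 0.09). Those with more after MRGX loss were CBX6 (-1.95 ± 0.08), PRDM4 (-1.71 ± 0.07), PRDM1 (-1.37 ± 0.07), HDAC9 (-1.28 ± 0.08), DPF3 (-1.27 ± 0.13) and CBX5 (-1.27 ± 0.07). For SETD8 (0.04 ± 0.06), ARID2 (-0.01 ± 0.07), RBBP4 (-0.11 ± 0.06) and SMARCC2 (0.02 ± 0.08) the difference did not pass the test, which does not show that the paralogs act alike on them.

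**Figure D4:**
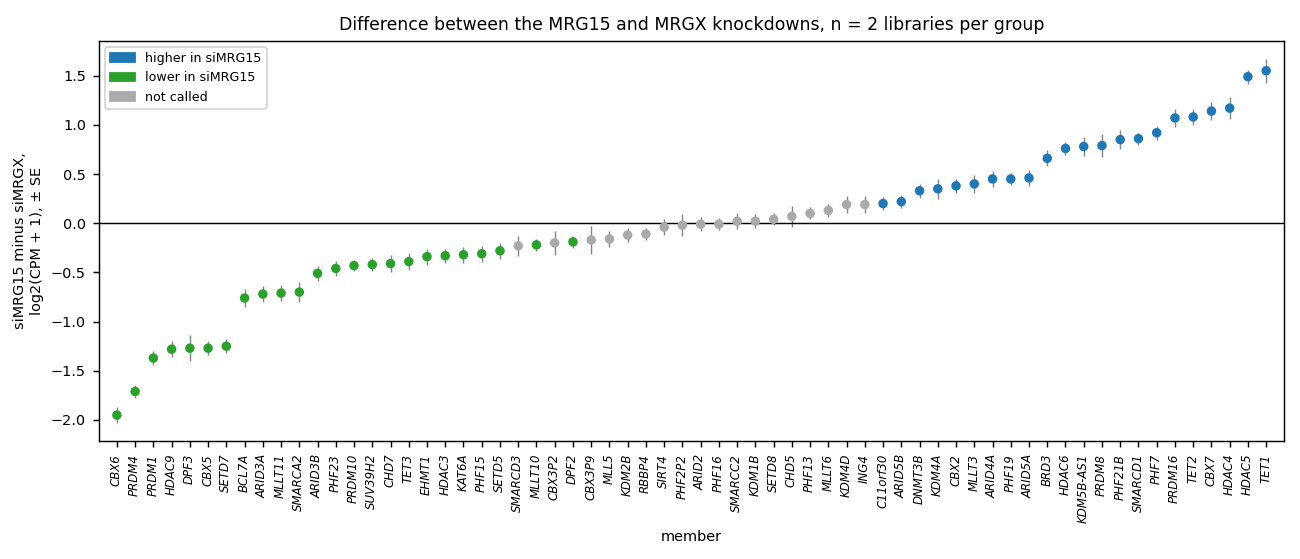
Difference of log2(CPM + 1) between siMRG15 and siMRGX for 64 of the 65 members in order, with bars of ± 1 SE; blue points were called higher and green points lower in siMRG15. The values run from -1.95 for CBX6 to 1.55 for TET1.

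Chromatin genes outside the families were taken from 6 lists, of whose 111 names 33 are in the table. Of 10 Polycomb genes 8 fell and 1 rose in siTIP60 (median -0.53), where 37.7% of all genes fell and 41.1% rose. SCMH1, a Polycomb repressive complex 1 protein, fell there from 51.8 and 58.9 CPM to 12.8 and 12.9 CPM (-2.03 ± 0.07), whereas PHC2 of the same complex rose (0.99 ± 0.07), and EZH1, a catalytic subunit of complex 2, rose in siMRGX (1.19 ± 0.07) and fell in siTIP60 (-0.55 ± 0.07). Of 8 other remodelers and readers 6 fell and 1 rose in siTIP60 (median -0.95), among them UHRF1 (-1.84 ± 0.10) and HELLS (-1.20 ± 0.07), which act in maintenance of DNA methylation, and the architectural protein gene HMGA2 (-1.22 ± 0.06). Of 8 other writers and erasers 5 fell and 1 rose there (median -0.46). The arginine methyltransferase gene PRMT6 (-1.95 ± 0.07) and WHSC1L1 (-1.07 ± 0.08), of lysine 36 methylation, fell, and the demethylase gene JHDM1D rose (1.67 ± 0.09).

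All 4 listed NuRD, CoREST and NCoR cofactors fell in siTIP60 (median -0.55), among them TBL1XR1 (-1.45 ± 0.07), which works with HDAC3, and RCOR1 (-0.72 ± 0.06), while MTA2 rose in siMRGX (0.79 ± 0.07). Both COMPASS cofactors fell in siTIP60 (median -0.96), RBBP5 with -1.39 ± 0.08, and WDR82 fell most in siMRG15 (-0.94 ± 0.06). The single listed gene of the SIN3 and MRG partner list, BRMS1L, rose in siMRG15 (0.65 ± 0.09) and fell in siMRGX (-0.71 ± 0.09). In siTIP60 37.7% of all genes fell and the median of all genes was 0.05. Outside siTIP60 the Polycomb list had 5 higher and 4 lower in siMRG15, 5 and 2 in siMRGX, 3 and 3 in siMRGBP, and 4 and 2 in siBRD8. Over all genes 33.5% were higher and 35.8% lower in siMRG15, and 28.2% and 40% in siMRGX. These shares were 32.1% and 32.9% in siMRGBP and 28.3% and 25.9% in siBRD8.

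The authors' deposited table of transcripts is named as one of splicing. It marks each of 25895 transcripts as 0 or 1 for up and down in each comparison, under headings that do not give the test. Whether a mark stands for a change of level or of splicing is therefore not known. The table names the same knockdowns and holds 59 of the members. Of these members in the authors' deposited table, 64.4% had at least 1 marked transcript in siTIP60, beside 50.9% of all genes there, 49.2% beside 34.3% in siMRGX, 37.3% beside 31.8% in siMRG15, 28.8% beside 17.6% in siBRD8 and 23.7% beside 25.1% in siMRGBP. The member transcripts marked down in siTIP60 in the authors' deposited table were 51 and those marked up 27. The share of all transcripts marked each way was not computed, so this split has no background. A member with several marked transcripts counts more than once in it. Of 9 HDAC9 transcripts there, the authors' deposited table marked 8 up in siTIP60, 7 up in siMRGBP and in siBRD8, 6 up in siMRGX, and 1 up and 1 down in siMRG15. Both BCL7A transcripts carried an up mark in all 5 comparisons of the authors' deposited table. RBBP4 had 6 of 8 transcripts marked down in siTIP60, 4 in siMRGX and 3 in siMRG15 in the authors' deposited table. Some marks had the opposite direction to the gene's own change, and the marks need not measure the same thing. SMARCA2, higher in siTIP60 as a gene, had 1 of 4 transcripts marked down in the authors' deposited table, KAT6A, lower in siMRGBP, had 1 of 4 marked up there, and CBX5 had 2 marked down and 1 up in siTIP60.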

How the data were processed

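CPM for selected genes in 12 U2OS libraries were deposited by the authors, with a splicing table of 0 or 1 marks per transcript. The submitters' processing notes name minimap2 2.17-r941, featureCounts, Subread 2.0.0, Bowtie2 2.1.6, MACS2 2.0.10 and hg19, with no role given. The rule by which genes were selected, and any use of strand in counting, is not given in the sources used here. After removal of 5 repeated rows of 8813, 8808 genes remained. The CPM steps gave whole reads for 100.0% of values (tolerance 0.01 of a read), and an effective library size of 57255783 to 110402095 reads. In every library the step was first taken as the smallest difference between neighbouring values and then refined.

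Log2(CPM + 1) was fitted for all 12 libraries with limma 3.58.1 in R 4.3.3, with an intensity trend, no filter on low values and 6 residual degrees of freedom, with Benjamini-Hochberg adjustment across the 8808 genes and a threshold of 0.05. The 11 comparisons were 5 with siLuc, 5 of a knockdown with the mean of the other 4, and siMRG15 with siMRGX. The scripts were tested on simulated data. Members given with values were the 6 largest changes each way with siLuc and between the MRG knockdowns, the 3 largest each way against the other knockdowns, up to 3 per role by adjusted p, and fixed partners of MRG proteins. Some others were added as stated. The values of 1 member are not reported here, though the counts include it. Members and lists were chosen with earlier results of these data known. The pseudogenes and the antisense RNA were set apart from their role groups after their names were seen. Alternatives were pseudocounts of 0.5 and 5, a mean CPM of at least 5, median-of-ratios factors (DESeq2 1.42.0), TMM factors and the quasi-likelihood test on the recovered reads (edgeR 4.0.16), no trend, a replicate block, and leaving out each library. The edgeR test called 2915 genes higher and 3227 lower in siMRG15, 2482 and 3591 in siMRGX, 2804 and 2870 in siMRGBP, 2527 and 2379 in siBRD8, and 3595 and 3359 in siTIP60. Promoter sequences came from RefSeq (GRCh38.p14).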

Additional observations from a re-analysis of the deposited data

How the results depend on the processing

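No count of members called higher or lower in the 11 comparisons moved beyond 1.5 times under the alternatives run. Of 563 called member values 83 lost the call under at least 1 alternative, 47 of them only when a library was left out; 22 lost it with TMM factors, 21 with median-of-ratios factors, 10 without the trend, 9 with the replicate block, 3 with a pseudocount of 5 and 1 with the edgeR test. When each library was left out in turn, the members higher and lower against siLuc ran from 27 to 32 and 18 to 21 in siMRG15, 28 to 30 and 15 to 21 in siMRGX, 13 to 21 and 25 to 29 in siMRGBP, 23 to 30 and 17 to 20 in siBRD8, and 21 to 22 and 37 to 42 in siTIP60. With median-of-ratios factors ARID5B and BRD3 in siMRGX against the other knockdowns came to 0.00 and 0.00 (limma adjusted p = 0.986 and 0.972), on the other side of 0 from -0.17 and -0.16. The median of all genes in that comparison moved from -0.13 to -0.02 with these factors. The part of this move in the ARID5B and BRD3 values was not tested.

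With the replicate block 31 members were higher and 20 lower in siMRG15, 28 and 20 in siMRGX, 17 and 27 in siMRGBP, 28 and 18 in siBRD8, and 22 and 40 in siTIP60. Over all genes the block gave 2917 higher and 3112 lower in siMRG15, 2458 and 3449 in siMRGX and 2774 and 2855 in siMRGBP. In siBRD8 these were 2425 and 2207, and in siTIP60 3593 and 3276. Deviations of same-numbered libraries from their group means correlated between -0.47 and 0.183, with a median of -0.0213. With 2 libraries per group this cannot tell whether same-numbered libraries shared a culture or day, and the labels do not say. Groups of 2 libraries limit every error given, and the lowest members rest on as few as 13 reads in a library.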
